A study of Mus musculus with 20 samples.

Results

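Cyclosporine A acts on a short signalling route, and 10 genes of that route are described here in the mouse colon during dextran sulphate sodium (DSS) colitis. They are the cyclophilin Ppia, the calcineurin catalytic subunits Ppp3ca, Ppp3cb and Ppp3cc, the calcineurin regulatory subunit Ppp3r1, the transcription factors Nfatc1, Nfatc2 and Nfatc3, and the calcineurin regulators Rcan1 and Rcan2. The genes were chosen by name, and every array probe set annotated to them was looked up. Of the 10 genes, 8 had a probe set of their own symbol alone and were tested among 16739 genes, out of 21423 gene symbols with values. Ppia and Ppp3r1 had values only on a probe set that also carries another gene's symbol, so those values are given as the shared probe set's and not as the gene's.

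RNA of the middle colon was measured on 20 Affymetrix arrays, each from a different female mouse of the strain C57BL/6JOlaHsd, aged about 11 weeks, with 4 mice in each of 5 groups. The 2 healthy groups received saline or a mixture of the probiotic strains L930BB and IM386. The 3 colitis groups had 3% DSS, which damages the epithelial lining, in their water for 5 days and were given saline, the same probiotic mixture by gavage before and during DSS, or cyclosporine A by mouth at 25 mg/kg each day from day 1 to day 15. No healthy group received cyclosporine, so an effect of the drug without colitis cannot be read from these arrays. Cyclosporine was given in a methocel suspension, while the comparison group is labelled as saline. The mice were housed 5 to a cage, and the cage of each mouse was not used here.

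In the resting cell, NFAT proteins are phosphorylated and held in the cytoplasm. A rise in intracellular calcium activates calcineurin, a phosphatase made of a catalytic A subunit and a regulatory B subunit, which dephosphorylates NFAT and lets it enter the nucleus, where it switches on cytokine genes of activated lymphocytes. Cyclosporine binds cyclophilin A, the product of Ppia, and the complex blocks calcineurin. The Rcan proteins bind calcineurin and can inhibit it, and the short transcript of Rcan1 is itself induced by calcineurin and NFAT as a feedback. Because calcineurin is controlled by its activity and NFAT by its location in the cell, transcript levels do not measure either.

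Values are log2 expression as deposited, and a difference of 1 is a 2-fold change. Array medians lay between 6.22 and 6.29, and the correlations of array pairs between 0.965 and 0.994. The 11 epithelial markers that define the tissue averaged 10.94 to 11.36 on every array. On the first 3 principal components 3 arrays lay away from their groups (saline healthy mouse 2, saline colitis mouse 6 and probiotic colitis mouse 8), and each call of the 8 genes that was gained or lost without these 3 arrays is given both ways. Precision here is set by the number of arrays and by the spread within groups. The SEs and intervals use a spread shared by all 5 groups, although the groups differed. For Ppp3cc the SD was 0.46 in saline colitis and 0.25 in cyclosporine colitis, beside 0.11 in saline healthy mice. A gene was called where its adjusted p, from limma with Benjamini-Hochberg adjustment over all 16739 genes, was under 0.05.

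In saline colitis against saline healthy mice, 4 of the 8 tested genes were called, against 26.1% of all genes tested. Ppp3cc, Nfatc1 and Ppp3cb rose, with 11.7% of all genes called higher, and Rcan2 fell, with 14.4% called lower. Under cyclosporine, 1 of the 8 was called against saline colitis, with a background of 13.2% of all genes, and it was Rcan2, which rose 1.71-fold (7.58% of all genes were called higher). No gene of the 8 was called for the probiotic mixture in colitis, where 2.80% of all genes were. With 8 genes these counts are small, and none is called particular to the pathway. The median log2 change of the 8 genes was 0.18 in colitis, -0.05 under cyclosporine and 0.09 under the probiotic in colitis, beside -0.03, -0.01 and -0.02 over all genes tested. These comparisons share the saline colitis arrays.

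**Figure D1:**
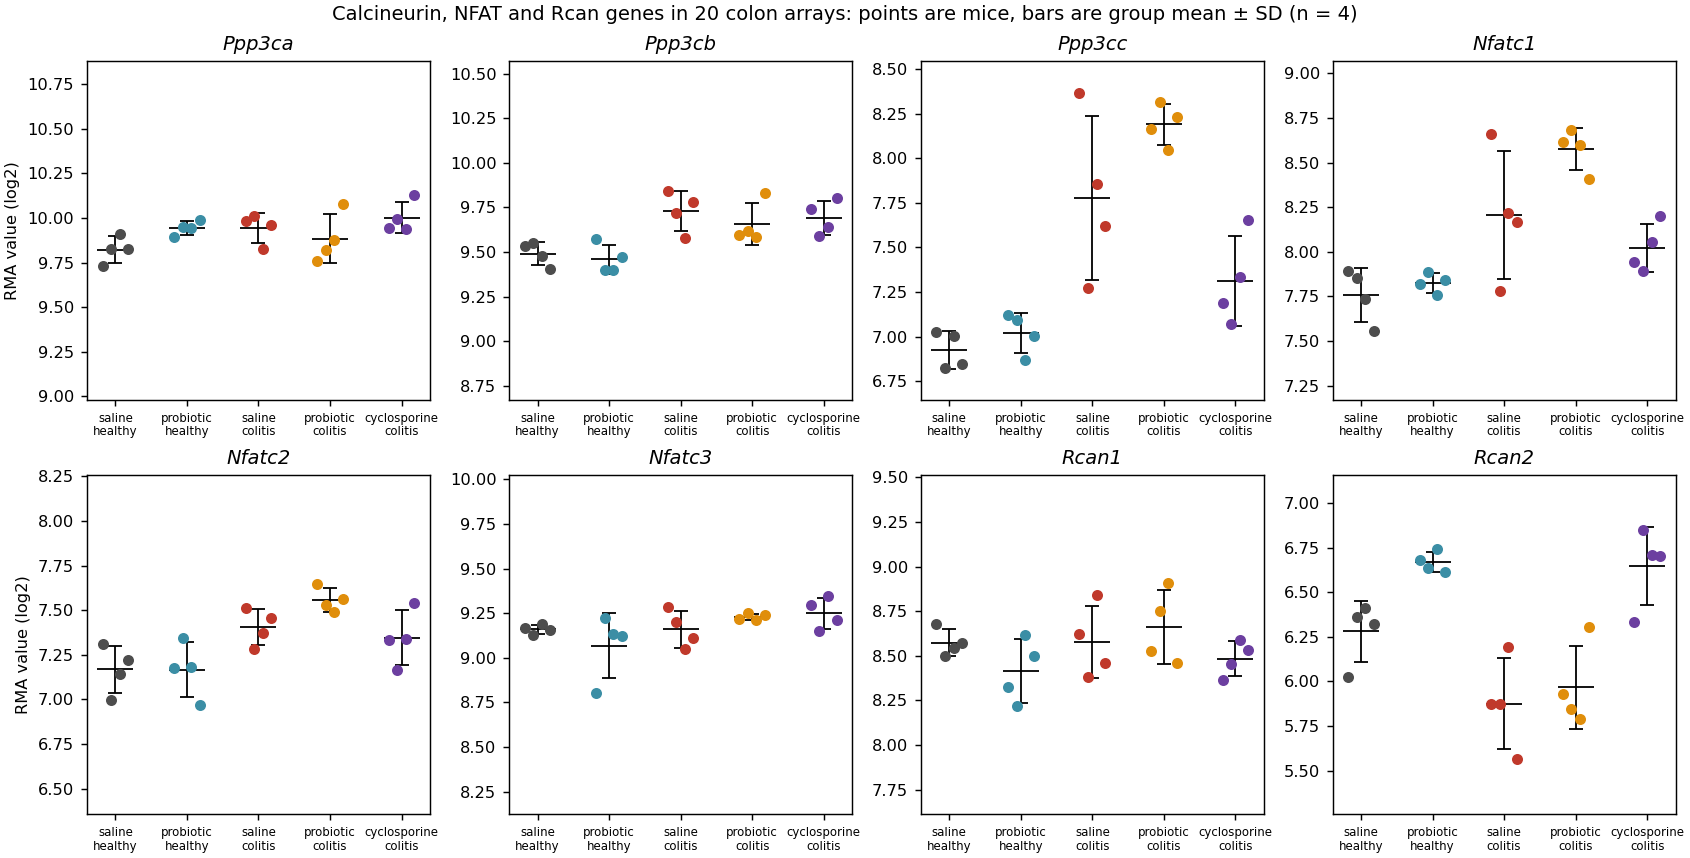
Log2 values of the 8 tested genes on each of the 20 arrays, with 1 panel per gene, 1 point per mouse, and bars for the group mean and SD (n = 4). Ppp3cc and Nfatc1 are highest in the probiotic colitis group and vary most in the saline colitis group, where Ppp3cc runs from 7.27 to 8.37, while Rcan2 is lowest in the saline and probiotic colitis groups.

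Ppia encodes cyclophilin A, the protein that cyclosporine binds. Its only probe set with values is annotated to Ppia and E030024N20Rik, and it was dim. The group means of this shared probe set were 5.53 in saline healthy, 5.32 in probiotic healthy, 5.43 in saline colitis, 5.45 in probiotic colitis and 5.38 in cyclosporine colitis. These levels lie close to 5.30, the level that a gene had to exceed on 4 arrays to be tested, and 15 of the 20 arrays were above it. In a fit over all 21326 probe sets above that level, the cyclosporine change was -0.05 ± 0.13 (SE, adjusted p = 0.856), against a background of 11.4% of probe sets called. A signal near the filter level bounds what this probe set can show, and the abundance of Ppia itself is not described here.

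Ppp3ca encodes the catalytic subunit calcineurin A alpha. Its values were 9.73, 9.82, 9.91 and 9.83 in the saline healthy mice, 9.98, 10.01, 9.82 and 9.96 in saline colitis, and 9.95, 9.99, 9.94 and 10.13 in cyclosporine colitis. The probiotic groups read 9.89, 9.95, 9.95 and 9.99 in health and 9.76, 9.82, 9.88 and 10.08 in colitis. All 5 group means lay between 9.82 and 10.00, and each group overlapped its neighbour in the order of means. The colitis change was 0.12 ± 0.07 (adjusted p = 0.222) and the cyclosporine change 0.06 ± 0.07 (adjusted p = 0.654), with a 95% interval of -0.09 to 0.20 for the latter.

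Ppp3cb encodes the catalytic subunit calcineurin A beta. It read 9.53, 9.55, 9.48 and 9.40 in saline healthy mice and 9.84, 9.72, 9.58 and 9.78 in saline colitis. Every saline colitis value was above every saline healthy value, as was so for 2 of the 8 genes and for 24.6% of all genes in one direction or the other. Ppp3cb rose by 0.24 ± 0.07 on the log2 scale, a 1.18-fold change (limma adjusted p = 0.0224). The probiotic colitis values of 9.59, 9.62, 9.58 and 9.83 and the cyclosporine colitis values of 9.74, 9.59, 9.64 and 9.80 overlapped saline colitis. The cyclosporine change was -0.04 ± 0.07 (adjusted p = 0.797). The colitis call was lost without saline healthy mouse 7, saline colitis mouse 5 or saline colitis mouse 10 (adjusted p up to 0.0758), and with a fit of only the 2 groups compared (adjusted p = 0.0580).

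Ppp3cc encodes the catalytic subunit calcineurin A gamma, and it showed the largest colitis change among the 8 genes. Its values were 7.03, 6.82, 7.00 and 6.85 in saline healthy mice and 7.12, 7.09, 6.87 and 7.00 in probiotic healthy mice. In saline colitis it read 8.37 in mouse 5, 7.27 in mouse 6, 7.85 in mouse 7 and 7.62 in mouse 10. All saline colitis mice were above all healthy mice, but they were spread over more than 1 log2 unit, with an SD of 0.46 against 0.11 in each healthy group. Ppp3cc rose by 0.85 ± 0.16, a 1.81-fold change (adjusted p = 0.000812), and leaving out any array of either group kept the call, at changes of 0.66 to 1.02.

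The probiotic colitis mice had Ppp3cc values of 8.16, 8.32, 8.04 and 8.23, a narrow range that lay between saline colitis mouse 5 and the 3 other saline colitis mice. The difference from saline colitis was 0.41 ± 0.16 (adjusted p = 0.182) and was called only without saline colitis mouse 5, at 0.61, or with array weights. The cyclosporine colitis mice read 7.19, 7.07, 7.34 and 7.65. Their values overlapped saline colitis mice 6 and 10, and all 4 were below every probiotic colitis value. The difference from saline colitis was -0.47 ± 0.16, with a 95% interval of -0.81 to -0.13 and an adjusted p of 0.0642, so it was not called. It was called without saline colitis mouse 6 or without cyclosporine colitis mouse 10 (adjusted p down to 0.00808), and without all 3 arrays that stand apart it was -0.63 (adjusted p = 0.00797). Ppp3cc was 1.84-fold lower under cyclosporine than under the probiotic, at -0.88 ± 0.16 (adjusted p = 0.000878).

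Ppp3r1 encodes calcineurin B, the regulatory subunit that all calcineurin A proteins need. Its probe set is shared with Wdr92, so the signal of either gene cannot be told apart. The shared probe set read 8.71, 8.71, 8.55 and 8.64 in saline healthy mice and 8.87, 8.94, 8.85 and 8.83 in saline colitis, without overlap. It was higher in colitis by 0.22 ± 0.06 (limma adjusted p = 0.0165 over 21326 probe sets, of which 23.2% were called). The call was lost without saline healthy mouse 6, at 0.19 (adjusted p = 0.0596). Cyclosporine colitis mice had 8.76 to 8.98 on this probe set, a change of -0.05 ± 0.06 from saline colitis (adjusted p = 0.692).

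Among the NFAT factors, Nfatc1, which is known for its autoregulated induction in activated lymphocytes, changed in the pattern of Ppp3cc. Its values were 7.89, 7.85, 7.74 and 7.55 in saline healthy mice and 7.82, 7.89, 7.76 and 7.84 in probiotic healthy mice. Saline colitis mice read 8.66 in mouse 5, 7.78 in mouse 6, 8.22 in mouse 7 and 8.17 in mouse 10, so that mouse 6 lay within the healthy range. Nfatc1 rose by 0.45 ± 0.13, a 1.37-fold change (adjusted p = 0.0145). Without saline colitis mouse 5 or saline healthy mouse 7 the call was lost (adjusted p up to 0.0543), as it was in the fit of only these 2 groups (adjusted p = 0.0831).

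Probiotic colitis mice had Nfatc1 values of 8.62, 8.69, 8.60 and 8.41, and cyclosporine colitis mice 7.94, 7.89, 8.05 and 8.20. The groups did not overlap, and Nfatc1 was 1.47-fold lower under cyclosporine than under the probiotic, at -0.55 ± 0.13 (adjusted p = 0.00424). Against saline colitis, the cyclosporine difference was -0.19 ± 0.13 (adjusted p = 0.374) and the probiotic difference 0.37 ± 0.13 (adjusted p = 0.128). Without the 3 arrays that stand apart, the cyclosporine difference was -0.33 (adjusted p = 0.0424). The probiotic difference was called without saline colitis mouse 5, at 0.52, and with array weights.

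Nfatc2, an NFAT that resting T cells already express, had smaller differences. It read 7.31, 7.00, 7.14 and 7.22 in saline healthy mice, 7.51, 7.28, 7.37 and 7.46 in saline colitis, and 7.33, 7.16, 7.34 and 7.54 in cyclosporine colitis. The colitis change was 0.24 ± 0.09 (adjusted p = 0.0570), and it was called without saline healthy mouse 2 or saline colitis mouse 6 (adjusted p down to 0.0354). Without the 3 arrays that stand apart the change was 0.33 (adjusted p = 0.0255), and it was also called with a stricter filter, with centred arrays and with array weights (adjusted p down to 0.0230). In mice on the probiotic mixture, 7.65, 7.53, 7.49 and 7.56 in colitis stood above 7.17, 7.35, 7.18 and 6.97 in health, and Nfatc2 rose by 0.39 ± 0.09 (adjusted p = 0.00246). The cyclosporine change against saline colitis was -0.06 ± 0.09 (adjusted p = 0.716).

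Nfatc3, another calcium-regulated NFAT, was close to level across the groups. Its group means ran from 9.07 in probiotic healthy to 9.25 in cyclosporine colitis, and every group overlapped its neighbour in that order. The colitis change was 0.00 ± 0.08 (adjusted p = 0.994), with a 95% interval of -0.16 to 0.16. The cyclosporine change was 0.09 ± 0.08 (adjusted p = 0.487), with an interval of -0.07 to 0.25. The probiotic healthy group held the single low array, at 8.80 in mouse 4, beside 9.12 to 9.22 in its other mice.

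**Figure D2:**
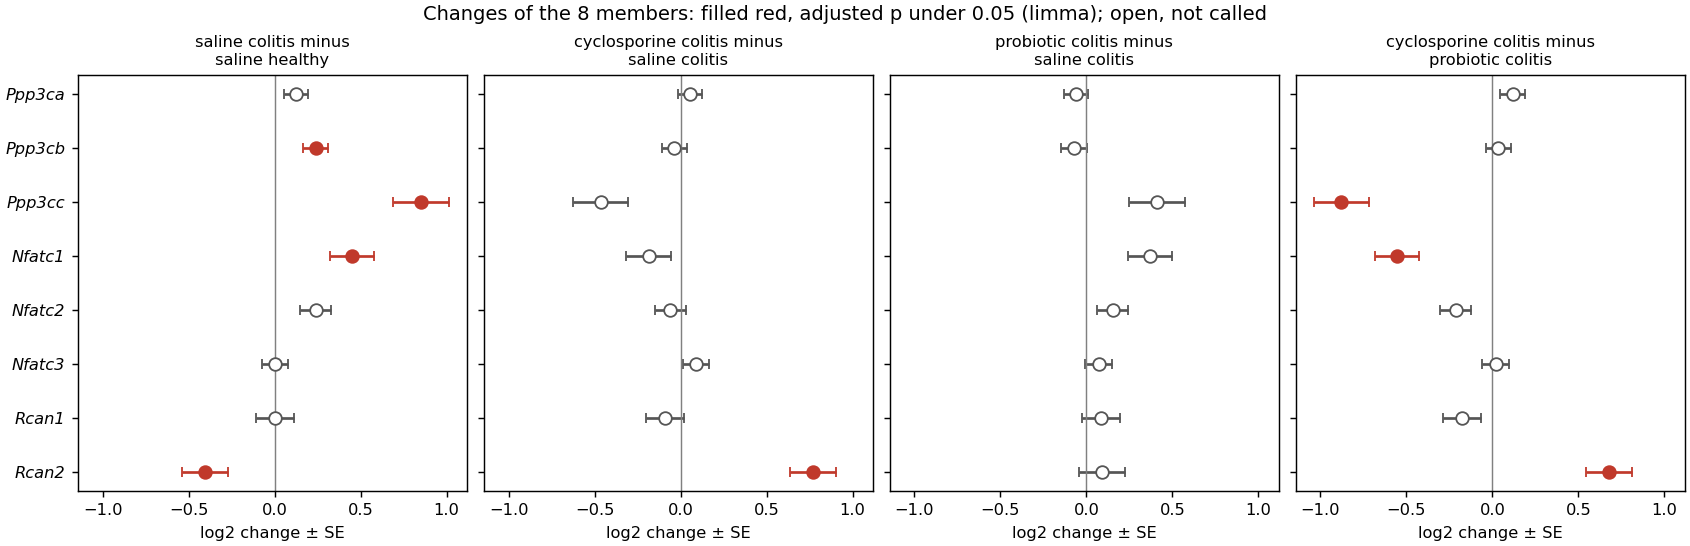
Log2 change ± SE of the 8 tested genes (n = 4 mice per group) in 4 comparisons, with filled red points where the limma adjusted p was under 0.05. Ppp3cc and Nfatc1 lie above 0 in colitis and below 0 for cyclosporine against the probiotic, and Rcan2 takes the opposite sides at -0.40 and 0.68.

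Rcan1 and Rcan2 encode regulators of calcineurin, and the windows just before their start sites are shown because Rcan1 is the textbook transcriptional readout of calcineurin activity. The windows were taken from RefSeq on GRCm38.p6, 250 bases before each start, 5′ to 3′ on the gene's strand. Capitals mark the NFAT core GGAAA or its reverse complement TTTCC, searched on both strands. The first line is the outermost Rcan1 start (chr16:92466170-92466419, minus strand), the next the internal Rcan1 start that gives the short transcript family (chr16:92400079-92400328, minus strand), and the last the outermost Rcan2 start (chr17:43801102-43801351, plus strand).
Rcan1 outermost start: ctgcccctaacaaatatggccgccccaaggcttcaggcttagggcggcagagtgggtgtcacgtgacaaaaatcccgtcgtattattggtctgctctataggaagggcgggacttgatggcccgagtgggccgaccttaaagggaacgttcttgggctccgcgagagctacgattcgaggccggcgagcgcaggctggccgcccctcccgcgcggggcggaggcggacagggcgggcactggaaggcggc
Rcan1 internal start: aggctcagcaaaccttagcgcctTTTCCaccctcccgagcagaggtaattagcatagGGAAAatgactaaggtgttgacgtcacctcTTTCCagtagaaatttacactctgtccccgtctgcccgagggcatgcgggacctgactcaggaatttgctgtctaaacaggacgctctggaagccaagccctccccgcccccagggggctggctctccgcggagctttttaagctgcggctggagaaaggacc
Rcan2 outermost start: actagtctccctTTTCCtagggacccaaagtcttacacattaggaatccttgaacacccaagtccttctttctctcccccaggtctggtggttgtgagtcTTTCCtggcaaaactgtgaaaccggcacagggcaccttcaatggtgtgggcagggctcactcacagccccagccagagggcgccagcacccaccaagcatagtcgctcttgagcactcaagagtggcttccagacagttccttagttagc

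The outermost Rcan1 window held 0 matches, and the internal window held 3, beginning 227, 193 and 163 bases before the start. The Rcan2 window held 2, at 238 and 150 bases before the start, and the other 2 Rcan2 windows held 0. Of all 32851 windows of this length in the table, 6.39% held 3 or more matches and 55.6% held at least 1. Windows on chromosome 18, where Nfatc1 lies, were left out of the member count but not out of the 32851. Ppp3ca and Ppp3cc had no window, so they are not among the members counted either. Over the 12 windows of the 7 members counted, 7 (58.3%) held a match. Of the 12, 3 held 3 matches, the others being the outermost windows of Ppp3cb and Nfatc2. A 5-base core is a description of letters and not a binding site. The Rcan1 probe set does not separate transcripts from the 2 starts.

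Rcan1 was not called in any comparison of all 20 arrays. It read 8.68, 8.50, 8.54 and 8.57 in saline healthy mice, 8.62, 8.38, 8.84 and 8.46 in saline colitis, and 8.36, 8.45, 8.59 and 8.53 in cyclosporine colitis. Probiotic healthy mice had 8.32, 8.22, 8.62 and 8.50, and probiotic colitis mice 8.53, 8.75, 8.91 and 8.46. Values of all 5 groups overlapped. The colitis change was 0.00 ± 0.11 (adjusted p = 0.995), with a 95% interval of -0.23 to 0.23. The cyclosporine change was -0.09 ± 0.11 (adjusted p = 0.639), with an interval of -0.32 to 0.14, so changes within that range could not be told from 0 with these arrays. In mice on the probiotic mixture the colitis change was 0.25 ± 0.11 (adjusted p = 0.0990). That change was called, at 0.31, without probiotic colitis mouse 8 (adjusted p = 0.0420) and without the 3 arrays that stand apart (adjusted p = 0.0348), and with array weights (adjusted p = 0.0266).

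Rcan2, which is expressed in muscle and brain and also binds calcineurin, changed in colitis in the opposite direction to Ppp3cc. It read 6.02, 6.36, 6.41 and 6.32 in saline healthy mice and 5.87, 5.87, 6.19 and 5.57 in saline colitis. Mouse 2, the lowest of the healthy group, lay below the highest colitis mouse, mouse 7, so the groups overlapped. Rcan2 fell by 0.40 on the log2 scale with an SE of 0.13, a 1.32-fold fall (adjusted p = 0.0301). This call was weak: it was lost without saline healthy mouse 4, 6 or 7 or saline colitis mouse 5, 6 or 10 (adjusted p up to 0.115), and in the fit of only these 2 groups (adjusted p = 0.0620).

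In cyclosporine colitis, Rcan2 read 6.33, 6.85, 6.71 and 6.70, above all 4 saline colitis mice. It was the only one of the 8 genes whose cyclosporine and saline colitis groups did not overlap, as 15.0% of all genes did not. Rcan2 rose by 0.77 ± 0.13, with a 95% interval of 0.49 to 1.05 (adjusted p = 0.00105). The call held when any array of either group was left out, at 0.67 to 0.88 (adjusted p up to 0.00646). Probiotic colitis mice had 5.93, 5.84, 5.79 and 6.30, close to saline colitis, with a difference of 0.09 ± 0.13 (adjusted p = 0.774). Rcan2 was 1.60-fold higher under cyclosporine than under the probiotic, at 0.68 ± 0.13 (adjusted p = 0.00127).

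Rcan2 also had the highest healthy values in the probiotic group. Probiotic healthy mice read 6.68, 6.63, 6.74 and 6.61, all above the saline healthy mice. The difference was 0.39 ± 0.13, and the adjusted p of 0.417 did not pass. In that comparison 0 of the 8 genes and 0% of all genes were called with limma, while 1 of the 8 and 9.03% of all genes had an unadjusted p under 0.05. Groups that do not overlap made up 7.07% of all genes there. The cyclosporine colitis mean of 6.65 lay above the saline healthy mean of 6.28 by 0.37 ± 0.13 (adjusted p = 0.10), with overlapping values.

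Set against saline healthy mice, 0 of the 8 genes in cyclosporine colitis were called with limma, beside 6.02% of all genes, and 4 of the 8 had an unadjusted p under 0.05, beside 24.0%. Those 4 were Ppp3ca at 0.18, Ppp3cb at 0.20, Ppp3cc at 0.39 and Rcan2 at 0.37. Ppp3ca, Ppp3cb and Ppp3cc did not overlap between these groups, as 14.7% of all genes did not. This comparison differs in both DSS and the drug. Between the treatments of colitis, 3 of the 8 genes were called, against 23.2% of all genes: Rcan2 higher (11.3% of all genes) and Ppp3cc and Nfatc1 lower (12.0%). The same 3 did not overlap, as 21.0% of all genes did not. Nfatc2, at -0.21 ± 0.09 (adjusted p = 0.0965), was called in that comparison when cyclosporine colitis mouse 10 was left out (adjusted p = 0.0345). Ppp3ca, at 0.12 ± 0.07 (adjusted p = 0.257), was called there, at 0.18, without probiotic colitis mouse 8 (adjusted p = 0.0498) and without the 3 arrays that stand apart (adjusted p = 0.0405), and with array weights (adjusted p = 0.0403).

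On the probiotic mixture, colitis against health gave 4 called genes of 8, against 29.7% of all genes, of which 13.6% were called higher and 16.1% lower. Ppp3cc rose by 1.17 ± 0.16, a 2.25-fold change (adjusted p = 2.76e-05), and Nfatc1 by 0.75 ± 0.13 (adjusted p = 0.0002). Nfatc2 rose, as given above, and Rcan2 fell by 0.70 (SE 0.13, adjusted p = 0.000481). Ppp3cb, at 0.20 (adjusted p = 0.0505), was called without probiotic healthy mouse 4, with a stricter filter, with trended moderation and with array weights (adjusted p down to 0.0341). Whether the probiotic effect differed between colitis and health was tested as an interaction, and 0 of the 8 genes and 0% of all genes were called with limma. At an unadjusted p under 0.05 the interaction had 0 of the 8 genes and 8.64% of all genes, and the smallest adjusted p of the 8 was 0.642.

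Genes that NFAT induces in activated T cells were counted from a list of 18, of which 12 were tested. In colitis 5 of the 12 rose and 0 fell, beside 11.7% and 14.4% of all genes, with a median change of 0.47. The cytokine gene Tnf rose by 1.51 ± 0.24 (adjusted p = 0.000175), and its saline colitis range of 8.04 to 9.09 was above the saline healthy range of 6.81 to 7.13. The costimulator Icos rose by 1.02 and the interleukin 2 receptor chain Il2ra by 0.87. The fifth, the checkpoint receptor Ctla4, passed the filter only through the saline and probiotic colitis groups. Its means were 4.71 in saline healthy, 4.88 in probiotic healthy and 5.02 in cyclosporine colitis, all under the filter level of 5.30, beside 5.56 in saline colitis and 6.25 in probiotic colitis. The dim side of its differences has no measured level, so its calls are counted here but support nothing. Tnfrsf9, named after its values were seen, rose by 0.59. Of the 18 genes, 6 were too dim to test, among them Il2, Il4 and Il21, so these cytokine genes could not be seen in whole colon. The cytokine genes Ifng and Tnf were tested, so the cytokine readout of T cell NFAT was seen only in part.

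Under cyclosporine, 4 of the 12 fell against saline colitis and 0 rose, beside 5.58% and 7.58% of all genes, with a median of -0.43. Tnf was 2.35-fold lower, at -1.23 ± 0.24 (adjusted p = 0.00248), with 6.96 to 7.47 in the cyclosporine mice. Il2ra (-0.66, adjusted p = 0.0217) and Tnfrsf9 (-0.65, adjusted p = 0.0261) also fell, and the fourth called gene was Ctla4. Leaving out saline colitis mouse 5 or 7 or cyclosporine colitis mouse 7 or 9 left 1 gene called, which was Tnf, while leaving out the 3 arrays that stand apart gave 6. Tnf is also made by macrophages and other cells and is not a T cell marker. Of 9 macrophage markers, 5 rose in colitis, beside 11.7% of all genes, and 1 fell under cyclosporine, beside 5.58%. Against the probiotic 7 were lower under cyclosporine, beside 12.0%. The part of macrophages in the Tnf values was not tested. The colitis count of macrophage markers was 8 without saline colitis mouse 6, 2 without saline colitis mouse 7, 3 without saline healthy mouse 2, and 8 without the 3 arrays that stand apart. The cyclosporine count was 0 without cyclosporine colitis mouse 7, 2 without saline colitis mouse 6 and 3 without the 3 arrays.

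The probiotic mixture in colitis had 2 of the 12 genes higher than saline colitis, beside 2.13% of all genes, with 0 lower. They were Ctla4 and Fasl, the latter by 0.36 (adjusted p = 0.0476). Leaving out saline colitis mouse 6, or probiotic colitis mouse 3, 5 or 7, left 0 called. Without saline colitis mouse 7 or 10 the count was 1. Without mouse 7 both Ctla4 and Fasl were lost, so the gene called there was another of the list. Leaving out saline colitis mouse 5 gave 4 and probiotic colitis mouse 8 gave 7. Against the probiotic group, 9 of the 12 were lower under cyclosporine and 0 were higher, beside 12.0% and 11.3% of all genes, with a median of -0.85. Ctla4 is among the 9. Tnf differed by -1.74, Il2ra by -1.23 and Icos by -1.20, each without overlap between the groups.

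**Figure D3:**
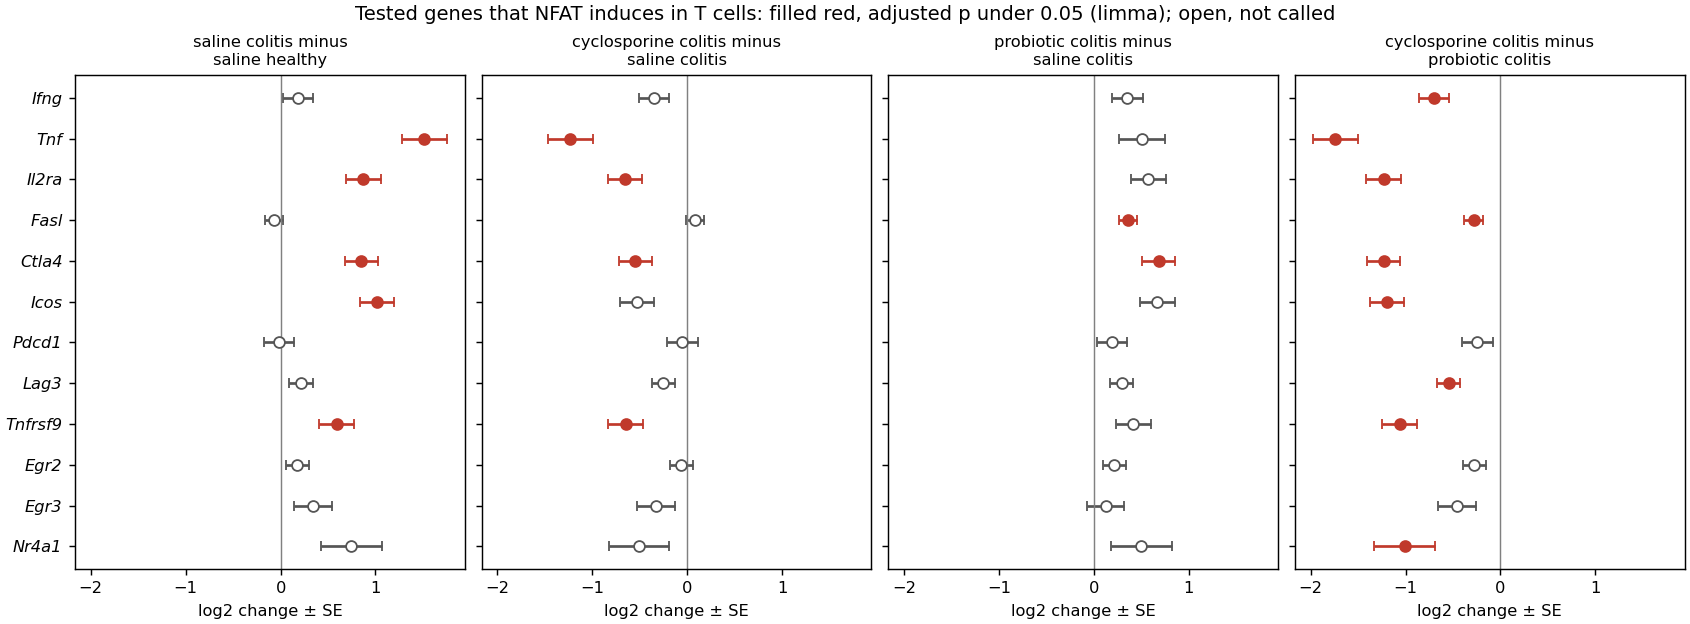
Log2 change ± SE of the 12 tested genes that NFAT induces in T cells, in 4 comparisons (n = 4 mice per group), with filled red points where the limma adjusted p was under 0.05. Tnf moves furthest, at 1.51 in colitis and -1.23 under cyclosporine, and 9 of the 12 genes are called lower for cyclosporine against the probiotic, among them Ctla4, whose healthy and cyclosporine means lie under the filter level.

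The other cyclophilins, which share the fold that cyclosporine binds, numbered 15, of which 13 were tested. In colitis 2 rose and 2 fell, beside 11.7% and 14.4% of all genes, and under cyclosporine 2 rose and 2 fell, beside 7.58% and 5.58%. With 13 genes, the colitis counts are near these shares. The 2 that rose in colitis went to 1 without saline healthy mouse 2 or 7 or saline colitis mouse 7 or 10. Ppil6 had the largest changes: it fell by 1.06 in colitis (adjusted p = 0.000281) and rose by 1.34 ± 0.18 under cyclosporine (adjusted p = 0.000131). Its saline colitis range of 6.16 to 6.80 lay below both the saline healthy range of 7.43 to 7.69 and the cyclosporine range of 7.55 to 8.03. Ppif, the mitochondrial cyclophilin D, fell by 0.57 in colitis (adjusted p = 0.0113) and rose by 0.53 under cyclosporine (adjusted p = 0.0319). The latter call was lost without saline colitis mouse 5 or 7 or cyclosporine colitis mouse 4, 7 or 9 (adjusted p up to 0.109). Ppil1 (-0.39) and Ppib (-0.24), the cyclophilin of the endoplasmic reticulum, fell under cyclosporine, and both calls were lost without the 3 arrays that stand apart. Each was also lost without saline colitis mouse 6 or cyclosporine colitis mouse 4 or 10, Ppil1 without saline colitis mouse 10, and Ppib without saline colitis mouse 7 or cyclosporine colitis mouse 7 or 9 (adjusted p up to 0.124). The FK506-binding proteins, the receptors of the other calcineurin-inhibiting drug, had 1 of 7 lower in colitis (Fkbp8, -0.27), beside 14.4% of all genes. Under cyclosporine 1 of 7 was lower (Fkbp2, -0.41 ± 0.09, adjusted p = 0.00601), beside 5.58%. In colitis 2 of the 7 rose and 1 fell, and 3 fell under cyclosporine, when the 3 arrays that stand apart were left out.

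Upstream of calcineurin, 9 of 13 genes of calcium entry and calmodulin were tested. In colitis 2 rose and 1 fell, beside 11.7% and 14.4% of all genes, counts near these shares. Plcg2, the phospholipase that signals below the B cell receptor, rose by 0.96 ± 0.17 (adjusted p = 0.000535). Under cyclosporine it was the 1 called gene of the 9, at -0.65 (adjusted p = 0.0172), beside 5.58% of all genes called lower. That fall was lost without saline colitis mouse 5 or cyclosporine colitis mouse 4 or 7 (adjusted p up to 0.0594). The endoplasmic reticulum calcium sensors went apart in colitis, Stim1 by -0.37 and Stim2 by 0.42. The kinases and scaffolds that oppose calcineurin on NFAT had 0 of 7 tested genes called in colitis and 0 under cyclosporine, with limma. Over all genes tested, 26.1% and 13.2% were called. At an unadjusted p under 0.05 these kinases and scaffolds numbered 1 and 2, beside 37.2% and 28.0% of all genes. Nfatc4 and Nfat5, the remaining tested NFAT genes, were called in neither comparison.

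In the list named calcineurin inhibitors and anchors, 4 genes were tested. A place in this list does not mean that a gene inhibits calcineurin, and the action of Chp2 on calcineurin was not tested. Chp2, a calcineurin B homologue of the intestinal epithelium, fell by 0.62 in colitis (adjusted p = 0.00159). It rose by 0.47 under cyclosporine (adjusted p = 0.0199) and fell by 0.56 under the probiotic in colitis (adjusted p = 0.0282). The cyclosporine rise was lost without saline colitis mouse 7 or cyclosporine colitis mouse 4 (adjusted p up to 0.0672), and the probiotic fall when probiotic colitis mouse 3, 5 or 7, or mouse 6 or 10 of the saline colitis group, was left out (adjusted p up to 0.118). The anchor Akap5 fell by 0.32 under cyclosporine (adjusted p = 0.0134). Of 11 other calcineurin substrates, 2 rose in colitis and 1 fell, beside 11.7% and 14.4% of all genes. With 11 genes, the colitis counts are near these shares. Under cyclosporine 2 rose, beside 7.58% of all genes. The colitis rises were those of the transcription factors Mef2c (0.69, adjusted p = 0.0378) and Mef2a (0.20, adjusted p = 0.0398), and neither was called without saline healthy mouse 2 or saline colitis mouse 5 or 10. Mef2c was also lost without saline healthy mouse 7 and Mef2a without saline colitis mouse 7 (adjusted p up to 0.143). The dynamin gene Dnm1 rose by 0.28 under cyclosporine (adjusted p = 0.0328), a call lost without saline colitis mouse 6, 7 or 10 or cyclosporine colitis mouse 7 or 9 (adjusted p up to 0.10). Crtc1, a coactivator of CREB, fell by 0.35 in colitis and rose by 0.25 under cyclosporine (adjusted p = 0.0274), a rise lost without saline colitis mouse 10 or cyclosporine colitis mouse 7 or 9 (adjusted p up to 0.0903).

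Of 9 genes that transport or metabolise cyclosporine, 5 were tested. Abcb1a, which encodes the efflux pump P-glycoprotein of the epithelium, fell by 1.16 ± 0.19 in colitis (adjusted p = 0.000247), from 11.77 to 12.04 in saline healthy mice to 10.31 to 10.99 in saline colitis. Its cyclosporine values of 11.07 to 11.45 were above all saline and probiotic colitis values, but the difference of 0.57 ± 0.19 from saline colitis was not called (adjusted p = 0.0549). It was called, at 0.64, without the 3 arrays that stand apart (adjusted p = 0.00481), and also without saline colitis mouse 6 or 7 or cyclosporine colitis mouse 10 (adjusted p down to 0.0416). Under the probiotic in colitis Abcb1a fell by 0.82 from saline colitis (adjusted p = 0.0302), a call lost without saline colitis mouse 6 or 7 or without mouse 3, 5 or 7 given the probiotic (adjusted p up to 0.124) and in the fit of only these 2 groups (adjusted p = 0.219). Cyclosporine values were 1.38 above those under the probiotic (adjusted p = 0.000108). Cyp3a13 fell by 0.78 in colitis (adjusted p = 0.00742) and rose by 0.75 under cyclosporine (adjusted p = 0.0189). The rise was lost without saline colitis mouse 5 or 7 or cyclosporine colitis mouse 4 (adjusted p up to 0.0642). Abcb1b, the paralogue of Abcb1a, rose by 0.62 in colitis (adjusted p = 0.0355), and this call was lost without saline healthy mouse 2, 4 or 6 or saline colitis mouse 5, 7 or 10 (adjusted p up to 0.143). Of 11 epithelial markers, 3 fell and 1 rose in colitis, beside 14.4% and 11.7% of all genes. Under cyclosporine 1 rose and 0 fell, beside 7.58% and 5.58%. In colitis 5 fell once the 3 arrays that stand apart were left out. The part of the epithelium in the values of Abcb1a, Cyp3a13 and Chp2 was not tested.

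Markers of the cells that could carry these transcripts moved with the groups. In whole tissue, fewer cells of a type and less RNA per cell cannot be told apart. Of 8 tested T cell markers, 6 rose in colitis, beside 11.7% of all genes, and 1 fell under cyclosporine, beside 5.58%. Against the probiotic 7 were lower under cyclosporine, beside 12.0%. The mean level of the 8 ran from 5.83 to 6.13 in saline healthy mice and 6.32 to 7.72 in saline colitis. It ran from 7.09 to 7.66 in probiotic colitis and 6.15 to 6.74 in cyclosporine colitis. Of 7 B cell markers, 6 rose in colitis, 2 fell under cyclosporine and 7 were lower than under the probiotic. The shares of all genes are the same as for the T cell markers. The B cell means were 7.15 to 7.86, 8.22 to 9.94, 9.38 to 9.66 and 7.44 to 8.98 in the same 4 groups. Trat1, a T cell marker, had means under the filter level in both healthy groups and under cyclosporine, and its highest group mean was 5.50. Cd8a had a mean under that level in probiotic healthy mice only. Both are counted among the 8, and any call of Trat1 supports nothing. Without the 3 arrays that stand apart, 4 T cell and 5 B cell markers fell under cyclosporine. Single arrays moved these counts too. T cell markers that fell under cyclosporine numbered 4 without saline colitis mouse 6 and 2 without cyclosporine colitis mouse 10. Those lower than under the probiotic numbered 4 when cyclosporine mouse 7 or 9, or mouse 3, 5 or 7 of the probiotic colitis group, was left out. B cell markers that fell under cyclosporine numbered 0 without saline colitis mouse 5, 4 without saline colitis mouse 6, 6 without cyclosporine colitis mouse 10, and 1 when any other array of these groups was left out.

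Ppp3cc and Nfatc1 followed these markers within the groups as well. Saline colitis mouse 5 had the highest T and B cell markers, Ppp3cc and Nfatc1 of its group, and saline colitis mouse 6 the lowest of each. Cyclosporine colitis mouse 10 was highest in its group for Ppp3cc, Nfatc1, Nfatc2 and both marker means. Over deviations from the group means on 20 arrays, the correlation with the T cell mean was 0.79 for Ppp3cc, 0.85 for Nfatc1 and 0.38 for Nfatc2, and with the B cell mean 0.85, 0.81 and 0.58. By rank (Spearman) the values were lower, at 0.55, 0.64 and 0.35 with the T cell mean and 0.73, 0.79 and 0.46 with the B cell mean. The mean of endothelial markers gave 0.66 for Ppp3cc and 0.71 for Nfatc1 (0.45 and 0.41 by rank). For Ppp3ca, Nfatc3 and Rcan1 the correlation with the T and B cell means lay between -0.07 and 0.18. Rcan1 had 0.56 with the macrophage mean, 0.52 with the neutrophil mean and 0.47 with the endothelial mean (0.40, 0.25 and 0.45 by rank). Ppp3cb had 0.33 with the T cell mean and 0.51 with the B cell mean (0.31 and 0.40 by rank). Ppp3ca had its strongest such value, -0.74, with the mean of 7 neutrophil markers, and Ppp3cb had -0.55 there (-0.67 and -0.38 by rank). Of these markers, S100a8, S100a9 and Retnlg had means under the filter level in saline healthy and cyclosporine colitis mice. The neutrophil values therefore support nothing. Probiotic colitis mouse 8, which stood apart, had a neutrophil mean of 6.74 and the highest Ppp3ca of its group, 10.08. All these correlations are descriptions over arrays that share a normalization. The part of lymphocytes in the changes of Ppp3cc, Nfatc1, Plcg2 and the T cell genes was not tested.

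Between groups, Rcan2 went with markers of the muscle layer and with the mean level of enteric neuron and glia markers. Of 8 smooth muscle markers, 7 fell in colitis, 6 rose under cyclosporine against saline colitis and 7 were higher than under the probiotic. The shares of all genes in these directions were 14.4%, 7.58% and 11.3%. The 6 became 2 without saline colitis mouse 7 or cyclosporine colitis mouse 7 or 9. The 7 higher than under the probiotic became 2 without cyclosporine colitis mouse 7 or 9. They became 4 without probiotic colitis mouse 5 and 1 without probiotic colitis mouse 7. The muscle mean ran from 11.12 to 11.22 in saline healthy and 11.03 to 11.17 in probiotic healthy. It ran from 10.42 to 10.79 in saline colitis, 10.42 to 10.90 in probiotic colitis and 10.69 to 11.29 in cyclosporine colitis. Cyclosporine colitis mouse 4 was lowest in its group for both the muscle mean and Rcan2, and probiotic colitis mouse 8 was highest for both in its group. Saline colitis went the other way, since mouse 10 had the highest muscle mean and the lowest Rcan2, and mouse 7 the lowest muscle mean and the highest Rcan2. Of 7 tested markers of enteric neurons and glia, 3 fell and 1 rose in colitis, and 2 rose and 1 fell under cyclosporine. Under cyclosporine 3 were higher and 0 lower than under the probiotic. All genes called higher made up 11.7%, 7.58% and 11.3%, and lower 14.4%, 5.58% and 12.0%. The mean of the 7 had medians of 7.04 in both healthy groups, 6.67 in saline colitis, 6.64 in probiotic colitis and 7.01 under cyclosporine. Cyclosporine colitis mouse 4 was lowest in its group, at 6.69. Within groups the correlation of Rcan2 with the muscle mean was 0.39 over 20 arrays and with the mean of these 7 markers 0.46. Rcan2 was 0.39 higher in probiotic healthy than in saline healthy mice, a difference that was not called (limma adjusted p = 0.417). The part of muscle or neural tissue in the Rcan2 changes was not tested.

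**Figure D4:**
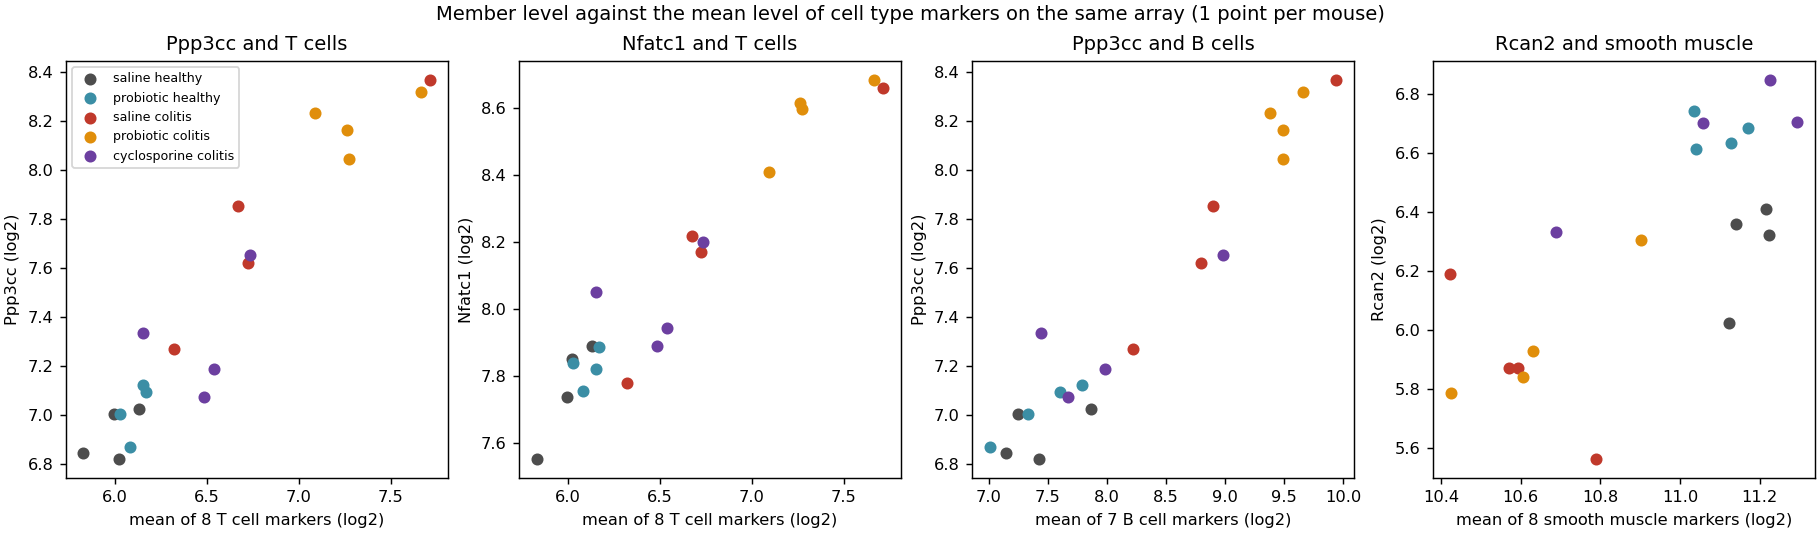
Log2 level of Ppp3cc, Nfatc1 or Rcan2 (vertical) against the mean log2 level of cell type markers on the same array (horizontal), with 1 point per mouse coloured by group. Ppp3cc climbs with the T and B cell means, and Nfatc1 with the T cell mean. Saline colitis mouse 5, highest in both marker means, had 8.37 for Ppp3cc and 8.66 for Nfatc1. Rcan2 overlaps between mice of low and high muscle mean, with saline colitis mouse 7 at 6.19 above saline healthy mouse 2 at 6.02.

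The genes most like each called member, by the correlation of deviations from group means over the 20 arrays, were named as a description, picked as the highest among all 16739 genes. For Ppp3cc they were Satb1 (0.94), Gimap3 (0.91) and BC035044 (0.90), and for Nfatc1 they were Sipa1 (0.91), Wdfy4 (0.90) and Dock2 (0.90). Ppp3cc and Nfatc1 correlated with each other at 0.86. For Rcan2 the top genes were Fmo2 (0.79), Edil3 (0.79) and Cacna2d1 (0.76), for Ppp3cb they were Eif1ax (0.84), Nsmce4a (0.81) and Ivd (0.80), and for Nfatc2 they were Cyp2d40 (0.79), Mir1949 (0.76) and Rarres1 (0.75).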

How the data were processed

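The deposited values, 1 per probe set and array, are on a log2 scale and were made with RMA, per the submitters' processing notes, which name no version. Of 41801 probe sets, 29195 had values on all 20 arrays and 12606 on none, and 22360 of those with values carried 1 gene symbol, 1013 several and 5822 none in the platform annotation. A probe set was kept where its value exceeded 5.30, the 25th percentile, on at least 4 arrays, and the brightest stood for its gene, which left 16739 genes and 4684 as dim. Each array is a mouse, placed in its group by its title. Group means were fitted over all 20 arrays in R 4.3.3 with limma 3.58.1 (lmFit, then eBayes, with 15 residual degrees of freedom and 4.03 prior ones), and 8 contrasts were taken. The fit was tested on simulated data. The shared probe sets of Ppia and Ppp3r1 were fitted among all probe sets above the filter level, a step added after the annotation was seen. The 10 genes, the pathway and marker lists and the tests were chosen with earlier results of these data known. Named were all members, up to 4 called genes per pathway list and comparison by smallest p, and the 3 genes most like a called member. Alternatives were other filters, normalization, centring, moderation, array weights, means over probe sets, a block for the animal number, a fit of only the groups compared, each array left out in turn and, added after seeing the data, leaving out the 3 arrays that stand apart. Animal numbers name mice within a group: the 20 pairs of equal number in different groups had a median correlation of deviations of 0.02, against -0.01 for the 140 other pairs, so no pairs were formed.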

Additional observations from a re-analysis of the deposited data

Results flagged for a closer look

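Of 40 groups of 4 values (8 genes in 5 groups), 1 held an array far from the other 3 by Dixon's test, and chance alone marks about 1 in 20 groups. It was Ppp3cb in probiotic colitis mouse 8, at 9.83 beside 9.58 to 9.62 in the other mice of its group. Mouse 8 is also an array that stood apart on the principal components, and its smooth muscle mean of 10.90 was the highest of its group. Without the 3 arrays that stand apart, the change of Ppp3cb under the probiotic in colitis was -0.13 in place of -0.07, and it was called in neither fit.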

How the results depend on the processing

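The 8 genes' counts of calls moved with some choices, and the cause was not tested. With only the groups compared, which leaves fewer arrays and the spread of those groups alone, 1 gene (Ppp3cc) was called in colitis in place of 4. With array weights, 2 genes were called for the probiotic in colitis in place of 0. With the animal number as a replicate block, 1 gene was called between cyclosporine and the probiotic in place of 3, as Ppp3cc (-0.74, adjusted p = 0.0601) and Nfatc1 (-0.56, adjusted p = 0.0618) were lost, and the numbers do not pair the mice. Without the 3 arrays that stand apart, 3 genes were called under cyclosporine in place of 1. The mean of Nfatc3 in probiotic colitis was 9.21 after quantile normalization in place of 9.23. Leaving out each array gave 1 to 5 called genes in colitis (1 without saline healthy mouse 7 or saline colitis mouse 5, 2 without saline colitis mouse 10), 1 to 2 under cyclosporine, 0 to 2 for the probiotic in colitis, 3 to 4 between cyclosporine and the probiotic and 4 to 5 for colitis on the probiotic.

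Changes near 0 that were never called took the other sign under some settings. Nfatc3 in colitis was -0.0197 after quantile normalization, -0.0170 with array weights, -0.0483 with the replicate block and -0.01 without the 3 arrays, and Rcan1 in colitis was -0.0274 after quantile normalization. Nfatc2 for the probiotic in health was 0.00825 with centred arrays, 0.0394 with array weights, 0.00127 with the replicate block and 0.0455 without the 3 arrays, and Rcan2 for the probiotic in colitis was -0.11 with the replicate block and -0.0227 without the 3 arrays. Leaving out each array turned the sign of Nfatc2 (-0.0611 to 0.0653) and Nfatc1 (-8.33e-05 to 0.11) for the probiotic in health, Nfatc3 (-0.0399 to 0.0384) and Rcan1 (-0.0867 to 0.0653) in colitis, Ppp3cb (-0.0878 to 0.00125) under cyclosporine, Rcan2 (-0.0213 to 0.20) for the probiotic in colitis, and Nfatc3 (-0.0128 to 0.0526) and Ppp3cb (-0.0005 to 0.0936) between cyclosporine and the probiotic. Ppp3cc in colitis and Rcan2 under cyclosporine were called under all 10 alternatives and without each array. Signal near the filter level limits what the probe sets of Ppia and Ctla4 can show, and 4 arrays a group limit the precision of all changes.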
